A study of Rattus norvegicus and Mus musculus with 17 samples.

Results

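Liver of male ACI rats that was growing back after surgery was compared with untreated liver of the same strain. The comparison covered every gene in the deposited table for regenerating liver, which was 2093 of the 15824 lines in the 3 tables of a study of rodent liver tumours and regenerating liver. The 4 regenerating libraries came from rats of 10 to 12 weeks after partial hepatectomy, the removal of most of the liver, with tissue taken 24 hours later. The 3 control libraries came from untreated ACI liver, chosen to match the hepatoma rats in age, and no operated control without removal of tissue was among the groups. All animals were male, livers were frozen in liquid nitrogen, and RNA with an integrity number above 7 was used. In addition, 4 libraries of Morris hepatoma, tumours grown from MH3924a cells injected into the liver of ACI rats aged 10 weeks, were set beside the regenerating libraries. The labels do not say whether each library came from its own animal, so p-values measure only the spread between these libraries, which may be technical.

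When a large part of the liver is removed, the remaining hepatocytes, which are normally out of the cell cycle, re-enter it. Cytokine signals through interleukin 6 and growth factors such as hepatocyte growth factor act first, cyclin D1 carries cells past the restriction point in G1, DNA is then copied, and mitosis follows. Endothelial and stellate cells divide later than hepatocytes, and the organ continues to make plasma proteins and to clear drugs while it grows.

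The table holds preselected genes. Each listed gene had a deposited p-value under 0.05, the largest being 0.04997, and 1965 of the genes had a higher and 128 a lower mean in the regenerating libraries. Genes outside the table could not be looked at, among them Mki67, Pcna, Myc, Fos, Stat3, Hgf, Met, Egfr, Igfbp1, Cdkn1a, Alb and Cyp7a1 and 11 more of 39 genes chosen as regeneration genes. Of 10 hepatocyte markers only Tf, the iron carrier transferrin, was listed, and it had the highest mean of all genes, at 12430.1 to 19519 RPKM in the controls and 19915 to 21185 in regenerating liver (log2 fold change 0.46 ± 0.18, not called, adjusted p = 0.379 by limma, and -0.16 with medians of the tested genes set equal). Without control 3, the highest control, Tf passed as higher (0.67, adjusted p = 0.0038, limma). RPKM are reads scaled by transcript length and by library depth. Since the samples were pieces of tissue, fewer cells of a type and less RNA per cell cannot be told apart.

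Depth was known only relative to control library 1, and it ran from 1.00 to 1.14 in the controls and from 1.04 to 1.18 in the regenerating libraries. Control library 3 stood apart from the other 2 controls. Its rank correlation with them over the listed genes was 0.972 to 0.974, against 0.993 between controls 1 and 2, and it reached 0.973 with regenerating library 3. It also held the most cell cycle RNA of the controls. In 31 of the 34 tested mitosis genes it was the highest control, at a median of 22.2% of the way from the mean of controls 1 and 2 to the regenerating mean on the log2 scale. Over all 1703 tested genes control 3 was the highest control in 571, with a median of -12.3% of the way. Its part in each result below was not tested beyond the counts given without it.

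Of 1703 genes with at least 1 RPKM in at least 3 of the 7 libraries, 361 rose (21.2%), 13 fell (0.763%) and 1329 did not pass the test (limma on log2(RPKM + 1), Benjamini-Hochberg adjusted p under 0.05 counted over 23154 protein-coding genes). The genes that rose did so by 0.54 to 3.74 on the log2(RPKM + 1) scale, with a median of 0.96. On that scale 165 of them changed at least 2-fold and 39 at least 4-fold. Of the genes that fell, 9 changed at least 2-fold. The genes were listed for a difference, and 1522 tested genes (89.4%) had every regenerating library above every control and 61 (3.58%) every one below, and the median log2 fold change of all tested genes was 0.53. List medians below are read against that value. Setting the medians of the tested genes equal in every library moved their median fold change by -0.63 and gave 19 genes higher and 59 lower in place of 361 and 13, and quantile normalization gave 20 and 46. Both scalings remove any shift that the listed genes share, and these genes were listed for a difference.

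The number of calls leaned on single libraries. Without control library 1, 2 or 3 there were 20, 40 and 338 genes higher and 0, 1 and 14 lower, and without regenerating library 1, 2, 3 or 4 there were 151, 78, 251 and 230 higher and 4, 2, 7 and 9 lower. Of the 374 calls (22.0% of tested genes), 17 were kept without each library in turn. These 17 genes, chosen after their values were seen, were Abcg5, Adh1c, Ccnb2, Ccnd1, Cdkn2c, Csf1, H2ax, Haus4, Idh2, Jpt1, Kifc1, Mest, Naprt, Serpinb9, Snx8, Stmn1 and Tk1. Every other call below was lost when at least 1 library was left out. Where a gene that did not pass is said below to pass without 1 library, leaving out another library raised its adjusted p. Without control library 3, 253 of the 374 calls remained.

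**Figure D1:**
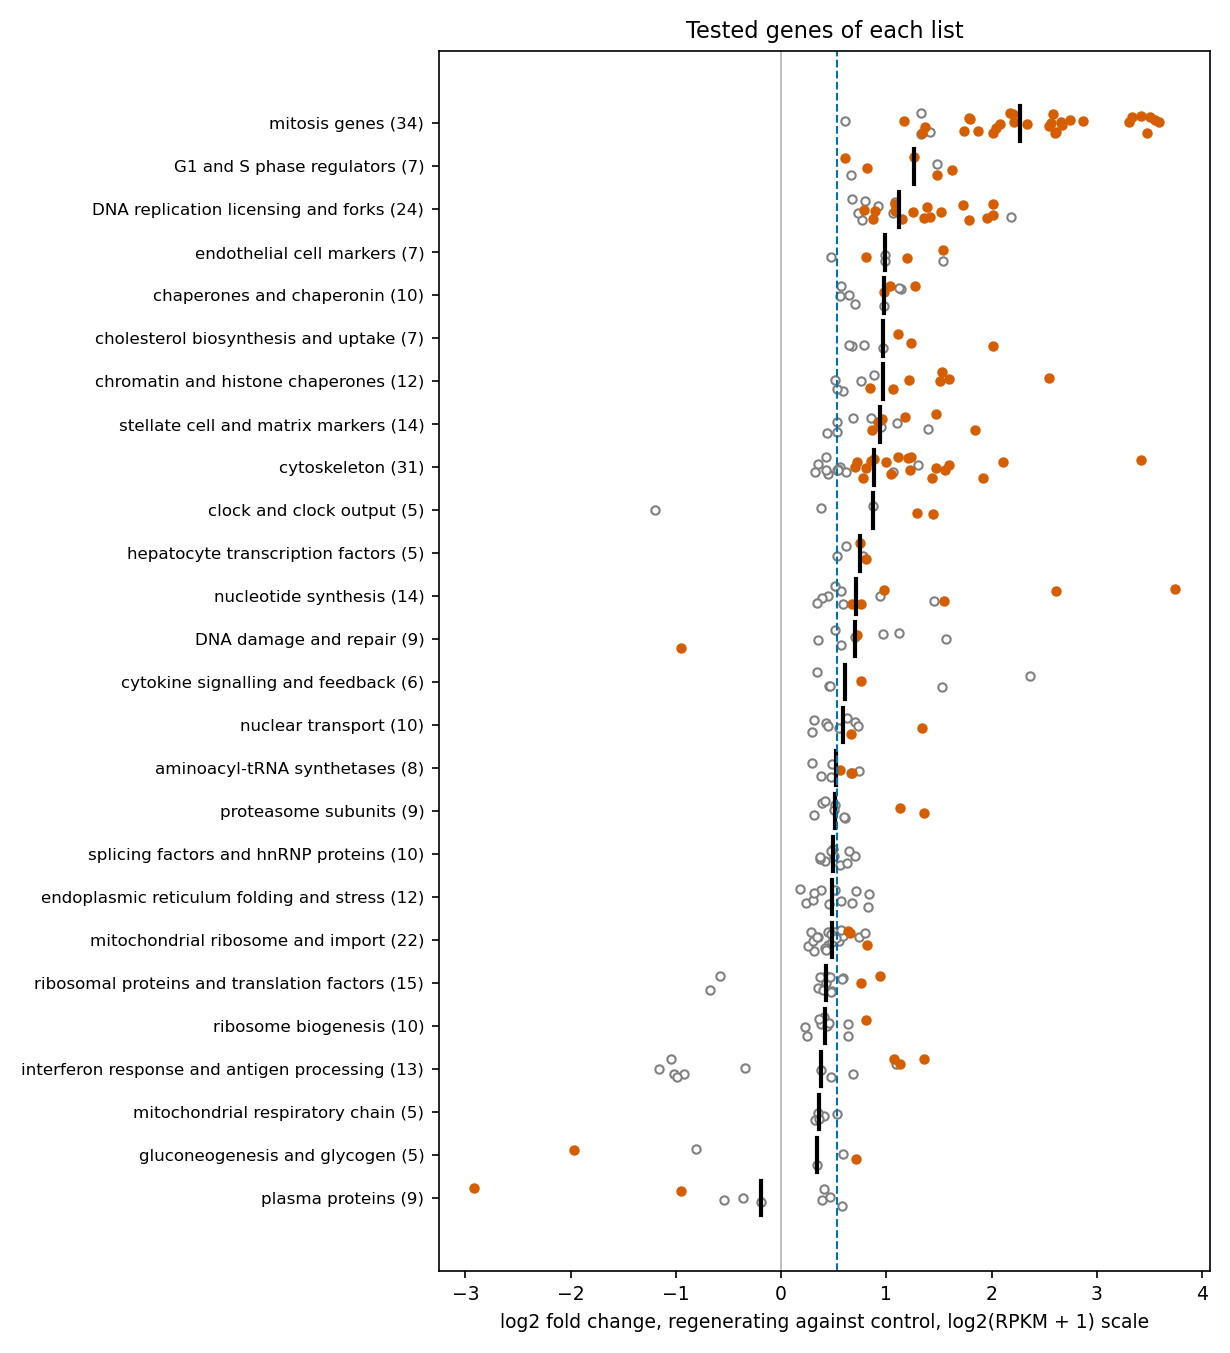
Each point is a tested gene of a list with at least 5 tested genes (number in brackets), placed by its log2 fold change on the log2(RPKM + 1) scale. Filled orange points passed the test, open points did not, black bars are list medians and the dashed line is the median of all tested genes, 0.53. Mitosis genes lie farthest to the right, with a median of 2.27, and the plasma proteins have the lowest median, -0.19.

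Genes of the mitotic machinery made up most of the largest rises. Of 69 genes on the mitosis list 38 were listed and 34 tested, and 30 rose, none fell and 4 did not pass, with a median log2 fold change of 2.27. All 34 were higher in every regenerating library than in any control, as were 89.4% of all tested genes. With medians of the tested genes set equal the list median was 1.65 and 7 genes passed. The expression filter bears on this count, since 14 of the 34 genes had no control library at 1 RPKM and passed the filter only because the regenerating libraries were high.

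Short promoter elements are known from cell cycle genes, and the members that moved together allow them to be looked up. The cell cycle genes homology region (CHR) has the letters TTTGAA and is known as a binding element of the DREAM and MuvB complexes, which repress mitotic genes in resting cells and activate them in G2. It often stands near a CCAAT box, letters CCAAT, which binds NF-Y. Both were searched on both strands in the RefSeq GRCr8 windows from 250 bases before to 50 after the gene start. Windows were found for 26 of the 34 tested mitosis genes, 17 of them (65.4%) held the CHR letters and 21 (80.8%) a CCAAT box, and 14 (53.8%) held both. Of 19005 protein-coding windows of the same length, 17.0% held the CHR letters, 38.4% CCAAT and 7.04% both, and of 1428 windows of tested genes 12.0%, 44.4% and 6.02%. The promoters of the kinase Cdk1 and of Cdc20 are printed in gene orientation as examples of the pattern, with CHR and CCAAT letters of either strand in capitals, so a box on the opposite strand reads ATTGG.
Cdk1 (GRCr8 chr20:19265043-19265342, plus strand): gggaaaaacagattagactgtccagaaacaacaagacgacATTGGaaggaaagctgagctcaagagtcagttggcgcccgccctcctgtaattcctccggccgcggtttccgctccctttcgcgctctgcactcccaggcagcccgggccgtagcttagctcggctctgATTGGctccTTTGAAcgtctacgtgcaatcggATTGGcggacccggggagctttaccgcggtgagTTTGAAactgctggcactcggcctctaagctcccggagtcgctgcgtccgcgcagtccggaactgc
Cdc20 (GRCr8 chr5:137255750-137256049, minus strand): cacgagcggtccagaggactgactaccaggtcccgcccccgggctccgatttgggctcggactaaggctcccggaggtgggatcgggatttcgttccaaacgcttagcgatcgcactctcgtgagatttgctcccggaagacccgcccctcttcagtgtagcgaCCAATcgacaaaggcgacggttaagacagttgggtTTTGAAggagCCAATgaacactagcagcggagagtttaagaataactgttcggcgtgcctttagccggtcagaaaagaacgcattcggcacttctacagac
The Cdk1 window holds 2 CHR matches and 3 CCAAT boxes, besides 1 E2F match (described with the replication genes) left in lower case, and the Cdc20 window 1 CHR match beside 2 CCAAT boxes. A match is a description of these letters and shows no binding.

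The mitotic cyclins and their kinase were under 1 RPKM in controls 1 and 2. Cdk1 (GeneID 54237), the kinase that drives entry into mitosis, was at 0.651, 0.44 and 3.67 RPKM in control libraries 1 to 3 and 18.1, 36, 15.1 and 40.7 in regenerating libraries 1 to 4. The groups did not overlap, and control 3 was the highest control by far. The log2 fold change was 3.56 ± 0.47 (adjusted p = 0.0155, limma). Ccnb1, the cyclin B1 partner of Cdk1, was at 0.32, 0.351 and 2.3 RPKM in the controls and 15.9, 24, 8.44 and 40.4 in the regenerating libraries (3.48 ± 0.50, adjusted p = 0.0194 by limma), and again control 3 was the highest control.

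Ccnb2 behaved differently in the controls. This second B-type cyclin (GeneID 363088) was at 0.429, 0.381 and 0.411 RPKM in the controls, level in all 3, and at 11.7, 17.7, 8.62 and 27.6 in the regenerating libraries. It rose by 3.51 ± 0.32 (adjusted p = 0.00583, limma), and its call was kept without each library. Ccna2, the cyclin of S phase and G2, rose from 0.291, 0.351 and 1.58 to 7.13, 16.6, 5.56 and 21.7 RPKM (2.87 ± 0.45, adjusted p = 0.0264, limma).

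Regulators of chromosome separation followed the same pattern. Cdc20, which activates the anaphase-promoting complex, was at 1.28, 0.782 and 2.48 RPKM in the controls and 18.8, 27.9, 11.6 and 48 in regenerating liver, a rise of 3.33 ± 0.43. Pttg1, the securin that keeps sister chromatids from separating until that complex destroys it, rose from 0.556, 0.483 and 1.58 to 18.1, 26.7, 10.2 and 37.4 RPKM. Its rise of 3.59 ± 0.39 was the second largest change of all tested genes on the log2(RPKM + 1) scale. The ubiquitin-conjugating enzyme of the complex, Ube2c, rose by 3.31 ± 0.43. Spindle and cytokinesis genes rose too, among them the kinases Plk1 (2.56 ± 0.35) and Aurkb (2.61 ± 0.39), the survivin gene Birc5 (2.33 ± 0.38), and the kinesins Kif20a (2.74 ± 0.30), Kif2c (1.79 ± 0.23) and Kifc1 (2.25 ± 0.23), with Plk1, Aurkb, Birc5 and Kifc1 named after their values were seen. Foxm1, a transcription factor of G2 genes, had 0.699, 0.435 and 0.752 RPKM in the controls and 2.42, 4.04, 1.46 and 5.5 in regenerating liver without passing the test (1.33 ± 0.30, adjusted p = 0.0715, limma), and passed without regenerating library 3 (1.57, adjusted p = 0.00995). The adjusted p of Foxm1 was 0.1893 without control 3 and reached 0.2735 over the fits without 1 library (limma). Without control 1, control 2 or regenerating library 2, 2, 2 and 8 of the 34 mitosis genes passed, and without control 3, 25 passed.

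**Figure D2:**
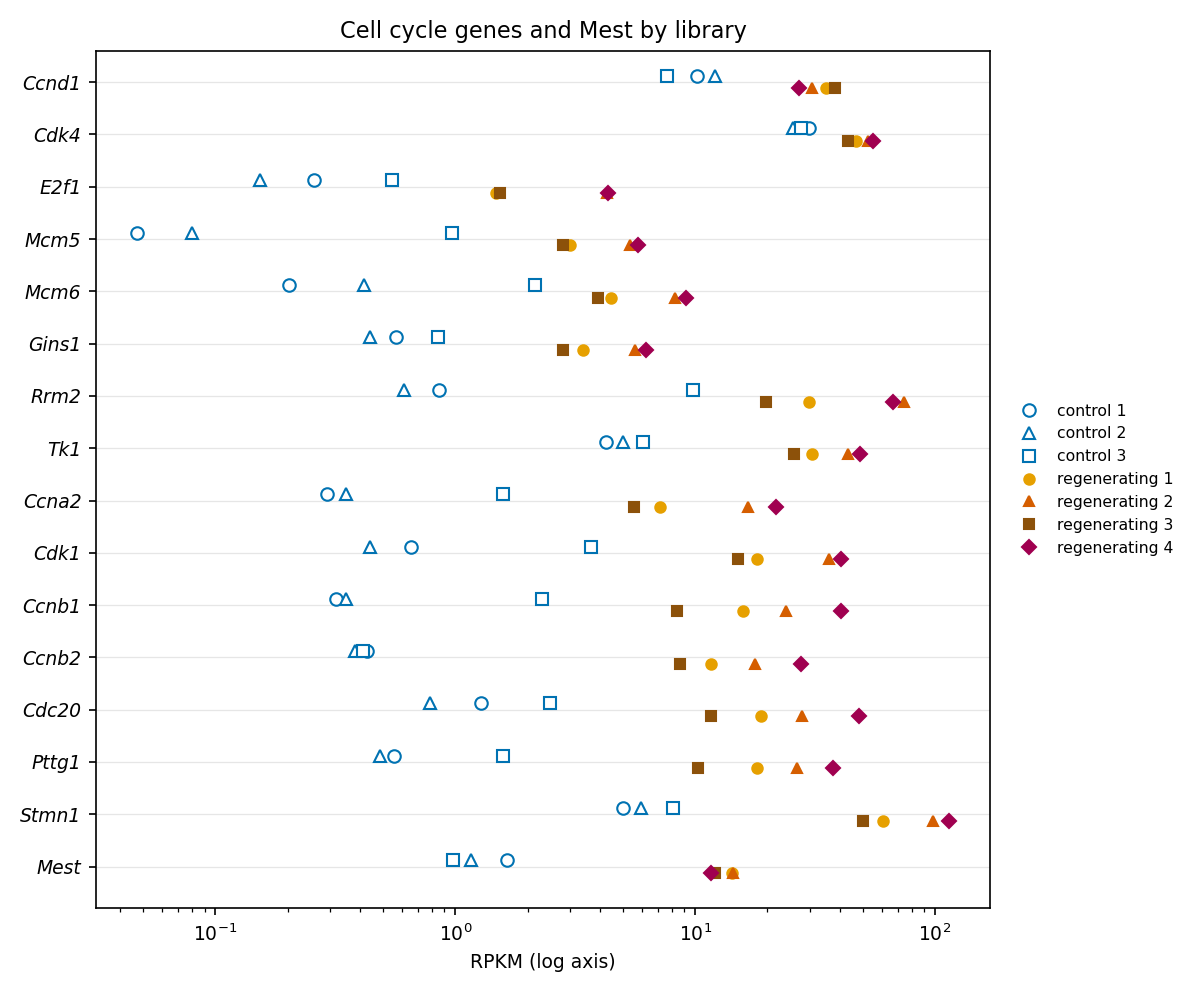
RPKM on a log axis for 15 cell cycle genes and Mest in each library, with open blue symbols for the 3 controls and filled symbols for the 4 regenerating libraries. For the mitotic genes control 3 (open square) lies between the other controls and the regenerating libraries, Ccnb2 being the exception, and regenerating libraries 2 and 4 lie to the right of 1 and 3, while for Ccnd1 library 3 is the highest.

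The start of the cycle was also raised, by less. Of 35 regulators of G1 and S phase 9 were listed and 7 tested, and 5 rose and none fell (median 1.26, and 0.64 with medians of the tested genes set equal). Of the 7, 3 had no control library at 1 RPKM. The count was 2, 2, 3, 2 and 3 without control 1, control 2, or regenerating library 1, 2 or 4. Ccnd1 (GeneID 58919), the cyclin D1 that carries cells past the G1 restriction point, was at 10.2, 12.1 and 7.65 RPKM in the controls and 35.1, 30.6, 38.2 and 27 in regenerating libraries 1 to 4. Control 3 was the lowest control and library 3 the highest regenerating one, the reverse of their places in the mitotic genes. Ccnd1 rose by 1.63 ± 0.17 (adjusted p = 0.00583, limma), a call kept without each library. Its kinase partner Cdk4 rose by 0.81 ± 0.13, from 25.6 to 30 to 43.5 to 55.2 RPKM. The inhibitors of that kinase Cdkn2c (p18) and Cdkn2d (p19) rose as well, by 1.49 ± 0.17 and 1.26 ± 0.22. E2f1, the transcription factor released when cyclin D kinases phosphorylate the retinoblastoma protein, was at 0.258, 0.153 and 0.542 and 1.48, 4.29, 1.54 and 4.33 RPKM and missed the threshold (1.48 ± 0.31, adjusted p = 0.0556, limma), which it passed without regenerating library 3 (1.66, adjusted p = 0.0218). The adjusted p of E2f1 was 0.1175 without control 3 and reached 0.2247 over the fits without 1 library (limma). Cdk1 and the cyclins of mitosis are not on the G1 and S list.

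Genes that license and copy DNA rose together. Of 53 on the list 29 were listed and 24 tested, and 16 rose, none fell and 8 did not pass (median 1.12, and 0.49 with medians of the tested genes set equal, when none passed). Of the 24 genes, 11 had no control library at 1 RPKM. Without control 1, control 2, regenerating library 1 or regenerating library 2, 0, 1, 7 and 3 of them passed, and without control 3, 12.

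Replication promoters often carried a match to an E2F element. The letters TTTCCCGC, TTTCGCGC, TTTGCCGC and TTTGGCGC, which E2F factors are known to bind, occurred on either strand in 12 of the 24 windows (50.0%), against 2.82% of all protein-coding windows, 5.88% of those of tested genes and 2 of the 26 mitosis windows (7.69%). The CHR letters occurred in 3 of the 24 (12.5%). The promoters of 2 subunits of the MCM helicase are shown with E2F letters of either strand in capitals; in Mcm5 the first capital run holds overlapping matches on both strands, as does the run in Mcm6.
Mcm5 (GRCr8 chr19:13488563-13488862, plus strand): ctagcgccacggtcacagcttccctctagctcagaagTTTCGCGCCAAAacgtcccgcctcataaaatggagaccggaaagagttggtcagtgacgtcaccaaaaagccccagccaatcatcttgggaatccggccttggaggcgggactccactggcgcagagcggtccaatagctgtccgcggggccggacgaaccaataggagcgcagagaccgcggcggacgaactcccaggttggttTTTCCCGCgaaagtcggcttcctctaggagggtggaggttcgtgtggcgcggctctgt
Mcm6 (GRCr8 chr13:42404303-42404602, minus strand): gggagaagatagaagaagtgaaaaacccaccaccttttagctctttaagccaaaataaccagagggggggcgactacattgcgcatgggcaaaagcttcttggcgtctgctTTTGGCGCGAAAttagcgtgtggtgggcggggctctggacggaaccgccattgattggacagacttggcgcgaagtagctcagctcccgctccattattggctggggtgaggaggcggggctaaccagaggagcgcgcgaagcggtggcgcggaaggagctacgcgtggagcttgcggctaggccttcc
Neither window holds the CHR letters.

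The MCM helicase, which is loaded on DNA in G1 and opens it in S phase, has 6 core subunits, of which 5 were listed. Mcm5 (GeneID 291885) was at 0.0469, 0.0801 and 0.969 RPKM in the controls and 3.01, 5.35, 2.81 and 5.78 in regenerating liver (1.96 ± 0.29). Mcm6 (GeneID 29685) was at 0.202, 0.415 and 2.15 and 4.45, 8.22, 3.94 and 9.12 RPKM (2.02 ± 0.38). In both, control 3 stood well above controls 1 and 2 and below every regenerating library. Mcm2, Mcm3 and Mcm7 rose by 1.52 ± 0.22, 1.78 ± 0.29 and 1.08 ± 0.19, and the controls of Mcm7 were level at 3.43, 3.28 and 3.16 RPKM. The loader Cdt1 (1.38 ± 0.18), the helicase partner Gins1 (1.73 ± 0.22), the ligase Lig1 (1.42 ± 0.19) and the maintenance methyltransferase Dnmt1 (0.89 ± 0.14) rose. Top2a, the topoisomerase that untangles copied DNA, had 0.178, 0.186 and 1.54 and 3.43, 9.81, 3.28 and 10.4 RPKM and an adjusted p of 0.0512 (limma, 2.19 ± 0.44), which was 0.0474 without control 3 and 0.0183 without regenerating library 3. Over the fits without 1 library its adjusted p reached 0.2179 (limma).

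Enzymes that make the building blocks of DNA rose. On the nucleotide list 14 of 29 genes were listed and tested, and 6 rose, none fell and 8 did not pass (median 0.72, and 0.09 with medians of the tested genes set equal). Rrm2 (GeneID 362720), the regulated subunit of ribonucleotide reductase, had the largest change of all tested genes on the log2(RPKM + 1) scale, 3.74 ± 0.70 (adjusted p = 0.0437, limma). It was at 0.856, 0.61 and 9.76 RPKM in the controls and 29.9, 74.5, 19.7 and 66.5 in the regenerating libraries, so control 3 was more than 10 times controls 1 and 2 and near the lowest regenerating library. The call was kept without control 3 and lost without any other single library. Tk1 (GeneID 24834), thymidine kinase, was more even, at 4.23, 5 and 6.05 and 30.6, 43.6, 25.9 and 48.5 RPKM (2.61 ± 0.22, adjusted p = 0.00221, limma), and was called without each library. Rrm1 (1.54 ± 0.30), Dctd (0.98 ± 0.19) and Shmt1 (0.75 ± 0.14) rose too. Without control 1, control 2, or regenerating library 1, 2, 3 or 4, the count on this list was 1, 1, 2, 1, 3 and 1, and 6 without control 3.

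The regenerating libraries differed among themselves along the cell cycle genes. In 29 of the 34 tested mitosis genes their order was the same, with library 3 lowest, then 1, then 2, and library 4 highest. Among the 24 replication genes, library 3 was the lowest in 19 and library 4 the highest in 18, with library 2 highest in the other 6. Over all 1703 tested genes library 3 was the lowest in 467 and library 4 the highest in 912, so the place of library 4 was partly shared by the table. The full order was not counted over all tested genes. On the scale of log2(RPKM + 1) minus the mean of controls 1 and 2, the median of the mitosis genes was 2.11, 2.88, 1.77 and 3.23 in libraries 1 to 4, and that of the replication genes 1.03, 1.62, 0.85 and 1.73. All libraries were labelled with the same time after surgery.

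**Figure D3:**
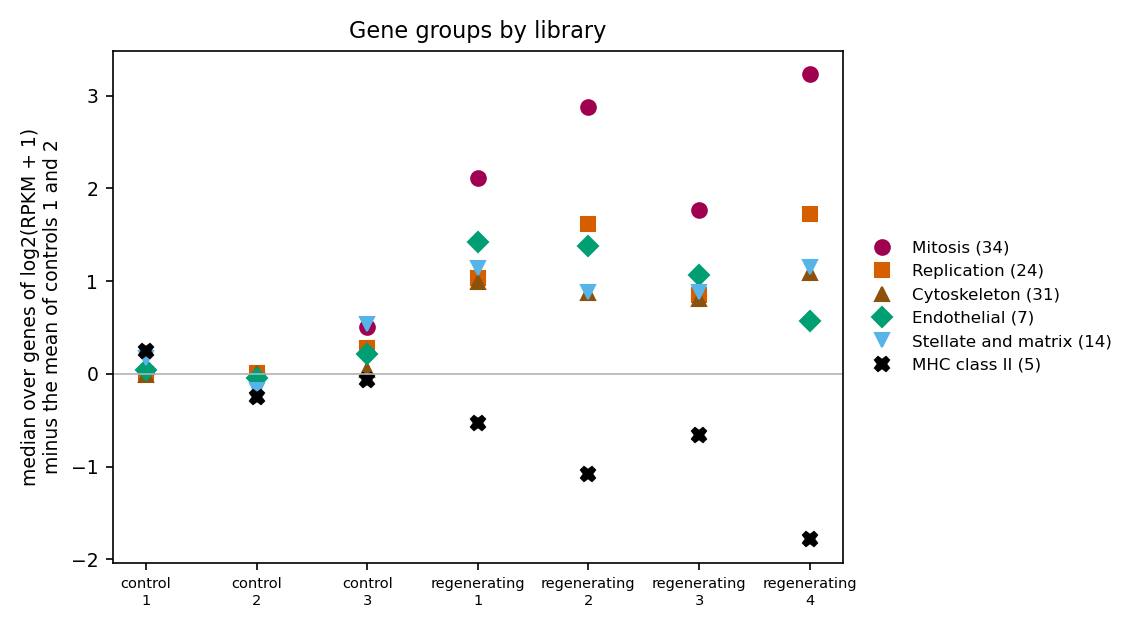
Median over the genes of 6 groups of log2(RPKM + 1) minus the mean of controls 1 and 2, for each library, with the number of genes in brackets. Mitosis and replication genes are highest in regenerating libraries 2 and 4, endothelial markers are lowest in library 4 among the regenerating libraries, and the 5 MHC class II genes lie below 0 in all 4 regenerating libraries, at -0.54 to -1.79.

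Among chromatin genes 7 rose. Of 46 on the list 12 were listed and tested, none fell and 5 did not pass (median 0.97, and 0.34 with medians of the tested genes set equal). Regenerating library 1 was the lowest of its group in 10 of the 12, against 546 of all 1703 tested genes. H2az1 (GeneID 58940), which encodes the histone variant H2A.Z, was at 24.6, 29.5 and 25 RPKM in the controls and 62.7, 91.3, 70.3 and 109.9 in regenerating liver (1.60 ± 0.19, adjusted p = 0.00908, limma). H2ax, the variant that is phosphorylated at DNA breaks, rose by 1.51 ± 0.17, from 6.08 to 6.64 to 15.9 to 25 RPKM, and kept its call without each library. The chromatin protein Hmgb2 rose by 2.54 ± 0.43, although control 3, at 5.72 RPKM, was far above the other controls. The lamin Lmnb1 (1.53 ± 0.21) and its receptor Lbr (1.06 ± 0.19) rose. The count was 1, 2 and 3 without control 1, control 2 or regenerating library 2.

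Genes of the cytoskeleton were well expressed in both groups and rose in a larger share than the tested genes at large. Of 49 on the list 31 were listed and tested, and 19 rose and none fell (median 0.88, and 0.26 with medians of the tested genes set equal, when 2 passed). Stmn1 (GeneID 29332), the microtubule-destabilizing protein stathmin, which is on the mitosis list too, was at 5.01, 5.96 and 8.08 RPKM in the controls and 60.5, 98.2, 50 and 115 in regenerating liver (3.42 ± 0.29, adjusted p = 0.00328, limma). The tubulin genes Tuba1b (2.11 ± 0.24), Tubb5 (1.92 ± 0.31) and Tuba1a (1.56 ± 0.19) rose, although reads of tubulin genes could have been split between near-identical copies. Actb, beta actin, often used as a reference gene, was at 343, 393 and 274 RPKM in the controls and 810.0, 754, 593 and 977 in regenerating liver and rose by 1.21 ± 0.19. The actin-binding genes Tagln2 and Msn rose by 1.59 ± 0.23 and 1.05 ± 0.16. Without control 1, control 2, regenerating library 1 or regenerating library 2 the count was 2, 4, 6 and 5.

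Lists for the growth of the cell itself lay at the level of the table as a whole. The medians were 0.42 for ribosome biogenesis (1 of 10 tested genes rose), 0.43 for ribosomal proteins and translation factors (2 of 15), 0.52 for aminoacyl-tRNA synthetases (2 of 8), 0.51 for proteasome subunits (2 of 9), 0.50 for splicing factors (0 of 10), 0.48 for folding in the endoplasmic reticulum (0 of 12), 0.48 for the mitochondrial ribosome and import (3 of 22) and 0.36 for the respiratory chain (0 of 5). None of their members fell, and the shares that rose lay near or under the 21.2% of all tested genes. Among ribosomal proteins and translation factors 1 gene was lower without control 3. On that list 2 genes were lower with medians of the tested genes set equal, and 2 with quantile normalization. With medians of the tested genes set equal all 8 medians lay below 0. Without control 3, 5 of the 12 endoplasmic reticulum genes passed as higher (median 0.61), and without control 1 no gene of the 8 lists passed. Bysl, a factor of small ribosomal subunit assembly, was the ribosome biogenesis gene that rose (0.81 ± 0.13), and 2 subunits of the guanine nucleotide exchange factor eIF2B, Eif2b2 (0.94 ± 0.15) and Eif2b3 (0.76 ± 0.11), were the translation genes that did. The 2 proteasome genes were Psmb10 (1.36 ± 0.24) and Psmb9 (1.13 ± 0.22), which encode catalytic subunits of the immunoproteasome and are on the antigen processing list too. Chaperones had a median of 0.98 and 3 of 10 rose, Hspa8 from 331 to 407 to 649 to 786 RPKM (0.98 ± 0.14), Hsph1 (1.03 ± 0.21) and Dnajc9 (1.28 ± 0.25). Without control 1 or control 2 no chaperone passed, and without regenerating library 2, 3 or 4, 1 did.

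Among liver functions both sterol exporters rose. Abcg5 (GeneID 114628) and Abcg8 encode the pair of proteins that form the transporter that moves cholesterol and plant sterols into bile. Abcg5 was at 1.82, 1.79 and 1.91 RPKM in the controls and 10.7, 11.7, 10.6 and 9.15 in the regenerating libraries. The controls were level, control 3 included, and the regenerating libraries spread by less than 3 RPKM, with library 4 the lowest. Abcg5 rose by 2.02 ± 0.12 (adjusted p = 8.12e-05, limma) and was called without each library. Abcg8 was at 0.454, 0.264 and 0.696 and 2, 2.4, 1.84 and 2.46 RPKM (1.11 ± 0.14, adjusted p = 0.0106, limma), with a wider spread among the controls, and its call was lost without control 1. No control library of Abcg8 was at 1 RPKM, so it passed the filter only because the regenerating libraries were high.

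The 2 genes stand head to head, and the promoter windows of Abcg5 (plus strand) and Abcg8 (minus strand, GRCr8 chr6:15717681-15717980) share 295 of their 300 bases. The Abcg5 window is printed for that reason, without capitals. It holds neither the CHR nor the E2F letters.
Abcg5 (GRCr8 chr6:15717686-15717985, plus strand): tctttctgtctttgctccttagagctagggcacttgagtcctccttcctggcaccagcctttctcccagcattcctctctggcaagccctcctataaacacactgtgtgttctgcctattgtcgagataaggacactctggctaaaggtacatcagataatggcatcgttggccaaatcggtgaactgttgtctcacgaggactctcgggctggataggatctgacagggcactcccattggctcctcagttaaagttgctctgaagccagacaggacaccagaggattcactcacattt

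On the list for cholesterol synthesis and uptake, to which both exporters belong, 7 of 31 genes were listed and tested and 3 rose, Abcg5 and Abcg8 among them, with none lower (median 0.97, and 0.35 with medians of the tested genes set equal). Without control 1 or control 2, 1 and 2 genes of this list passed.

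All 4 listed drug metabolism genes rose, of 75 on the list (median 1.17). The alcohol dehydrogenase Adh1c (GeneID 24172), one of the 5 genes with the highest mean, was at 441, 483 and 620.1 RPKM in the controls and 1679.7, 1904, 1519 and 1622 in regenerating liver (1.72 ± 0.16, adjusted p = 0.00261, limma), and the groups lay far apart. Por, the reductase that feeds electrons to the cytochromes P450, rose by 1.03 ± 0.14, the carboxylesterase Ces2c by 1.31 ± 0.17 and Adh4 by 0.88 ± 0.15. The other 71 genes of the list, most cytochromes P450 among them, have no value here. Without control 1, 1 of the 4 passed. Among hepatocyte transcription factors 2 of 5 tested genes rose, Rxra (0.75 ± 0.16), the common partner of nuclear receptors, and Gata4 (0.80 ± 0.13).

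The 13 genes that fell include enzymes and secreted products of the resting liver. Apoa4 (GeneID 25080), an apolipoprotein of lipid transport, fell most, from 1278, 1189 and 1456 RPKM in the controls to 111, 139, 123 and 451 in regenerating libraries 1 to 4. Library 4 was far above the other regenerating libraries, and still below every control. The log2 fold change was -2.92 ± 0.44 (adjusted p = 0.0225, limma, and 0.0594 without control 3). G6pc1 (GeneID 25634), glucose-6-phosphatase, the last step of glucose output, was at 632, 757 and 246 RPKM in the controls and 138, 146, 141 and 84.3 in regenerating liver (-1.97 ± 0.38, adjusted p = 0.0459, limma), with control 3 the lowest control by far. Without control 3 it was -2.47 (adjusted p = 0.0038, limma).

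Secreted proteins were among them too. Fetub, the protease inhibitor fetuin B, fell from 4905, 4402 and 2851 to 1896, 2172, 1912 and 2202 RPKM (-0.95 ± 0.19). The insulin-like growth factor binding protein Igfbp2 fell from 16.4, 22.7 and 17.9 to 11.8, 9.83, 6.5 and 5.86 RPKM (-1.11 ± 0.22), complement factor D, Cfd, by -1.14 ± 0.21 and the leukocyte protease inhibitor Slpi by -1.03 ± 0.15. The other falls were the ubiquitin ligase Rnf125 (-1.56 ± 0.30), carbonic anhydrase Car1 (-1.42 ± 0.21), the small GTPase Arl4d (-1.06 ± 0.22), the mitochondrial carrier Slc25a47 (-1.03 ± 0.21), Sesn2, a stress-induced inhibitor of mTORC1 signalling (-0.95 ± 0.17), the cold-inducible RNA-binding protein Cirbp (-0.76 ± 0.13) and the phosphatase Acp3 (-0.68 ± 0.14). Among 9 tested plasma protein genes 2 fell, Apoa4 and Fetub, and none rose (median -0.19). Without control 1, control 2, regenerating library 1 or regenerating library 2 neither passed, and without regenerating library 3 or 4, 1 did. Without control 3, 2 other plasma protein genes passed as higher and 1 gene was lower. On the gluconeogenesis and glycogen list 1 of 5 tested genes fell, G6pc1, and 1 rose, Pck2, the mitochondrial phosphoenolpyruvate carboxykinase (0.71 ± 0.15), whose call was lost without any single library.

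**Figure D4:**
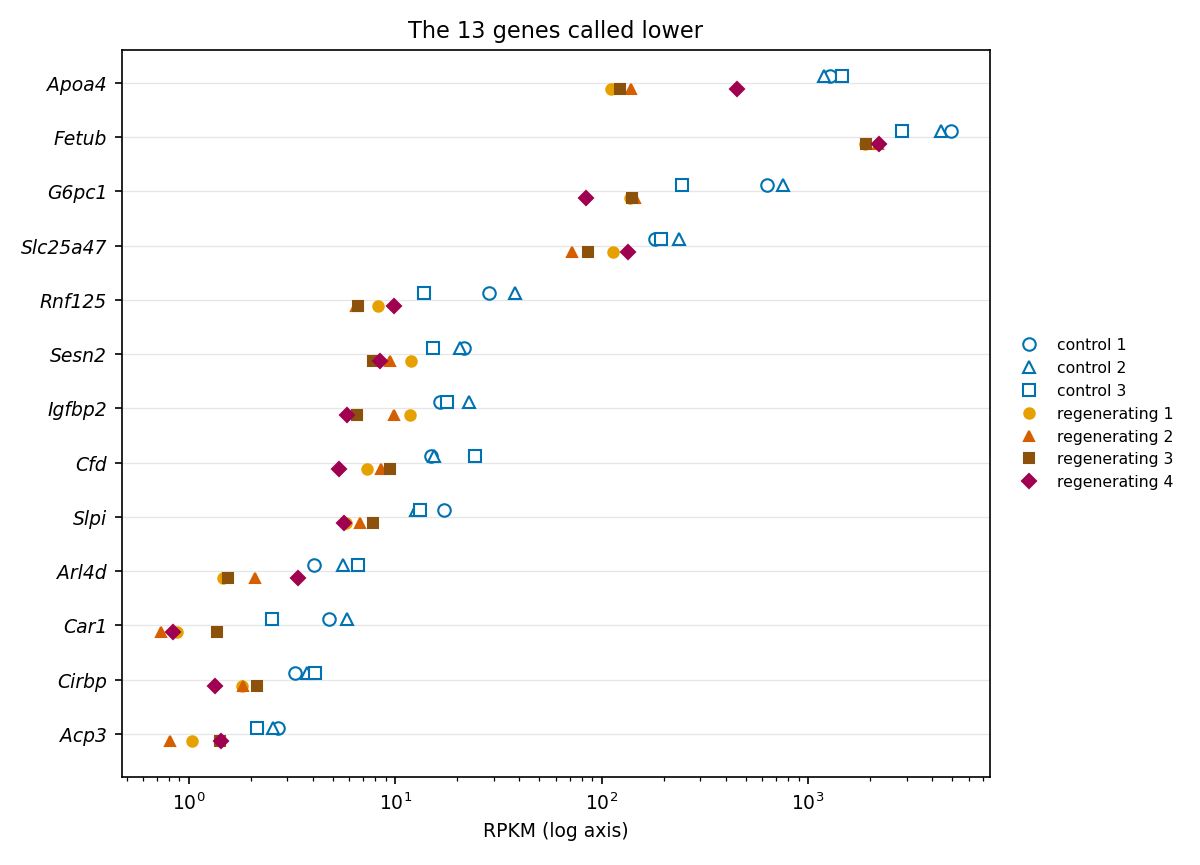
RPKM on a log axis for the 13 genes that fell, in each library, with open blue symbols for controls and filled symbols for regenerating libraries. No regenerating library reaches the lowest control in any of the 13 genes; regenerating library 4 (diamond) is the highest for Apoa4 and the lowest for G6pc1.

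Few signalling genes of the first hours were listed, and their counts are read against the 21.2% of all tested genes that rose. Of 30 genes of cytokine signalling and feedback 6 were listed and tested and 1 rose, the phosphatase gene Ptpn1 (0.76 ± 0.16). Socs3, the feedback inhibitor of interleukin 6 signalling, was at 0.79, 0.637 and 9.42 RPKM in the controls and 22.8, 18.7, 13 and 9.16 in regenerating libraries 1 to 4. Control 3 lay above regenerating library 4, and the difference did not pass (2.36 ± 0.62, adjusted p = 0.126, limma). Dusp6, the feedback phosphatase of ERK, was at 4.19, 3.17 and 10.7 and 20.2, 15.2, 12.6 and 22.9 RPKM, with control 3 again the highest control (1.53 ± 0.35, adjusted p = 0.0794, limma). Without control 3 both Socs3 and Dusp6 passed as higher, by 3.23 and 1.97 (adjusted p = 0.00617 each, limma). Of 28 immediate early genes 3 were listed and 2 tested, Ier5, which rose (0.86 ± 0.18), and Jun, at 6.21, 7.85 and 12.5 and 16.1, 13.3, 16.5 and 14.1 RPKM (0.75 ± 0.20, adjusted p = 0.11, limma). Jun passed as higher without control 3 (1.00, adjusted p = 0.0121, limma), and the call of Ier5 was lost without either other control or regenerating library 2, 3 or 4. Among ligands the matricellular protein gene Ccn1 rose from 3.97, 4.05 and 3.84 to 11.2, 14, 11.6 and 7.37 RPKM (1.25 ± 0.18), and Tgfb1, which restrains hepatocyte division, rose by 0.78 ± 0.16; both were lowest in regenerating library 4.

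Clock output genes differed as well. Usp2, a deubiquitinase under clock control, rose from 3.23, 2.89 and 5.81 to 9.77, 16.1, 13.5 and 10 RPKM (1.44 ± 0.23), and Wee1, the clock-regulated kinase that holds Cdk1 inactive, rose by 1.29 ± 0.25. They were 2 of 5 tested clock genes, and without control 1, control 2 or regenerating library 2 neither passed. Per2 overlapped between groups, at 0.489, 0.718 and 1.45 and 1.41, 1.98, 2.98 and 3.52 RPKM, as did Tsc22d3: this gene, induced by glucocorticoids, had 48.6, 50.4 and 22.7 and 15.9, 23.4, 14.9 and 12 RPKM with adjusted p = 0.107 (limma, -1.20 ± 0.30). Without control 3 Tsc22d3 passed as lower (-1.56, adjusted p = 0.0149, limma). The labels give no hour of day for the tissue, so its part in these values was not tested.

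The share of antigen processing genes that rose lay near the 21.2% of all tested genes, and none fell. The list median was 0.38, against 0.53 for all tested genes. Of 44 genes for the interferon response and antigen processing 13 were listed and tested, 3 rose (Psmb10, Psmb9 and the transcription factor Irf1, 1.07 ± 0.19), and 6 had every regenerating library below every control without passing. Of all tested genes 3.58% had every regenerating library below every control, called or not. The 6 included the MHC class II chains RT1-Bb, RT1-Da, RT1-Ba and RT1-Db1, the last pair named after their values were seen, and the invariant chain Cd74. Cd74, which escorts class II molecules, was at 236, 170.3 and 172 RPKM in the controls and 127, 90.9, 127 and 51.8 in regenerating liver (-1.02 ± 0.30, adjusted p = 0.187, limma). Their summed level was 376, 269 and 296 RPKM in control libraries 1 to 3 and 206, 145, 199 and 83.7 in regenerating libraries 1 to 4, so library 4, with the most mitotic RNA, had the least. Adjusted p ran from 0.0848 for RT1-Db1 to 0.305 for RT1-Ba (limma), and reads of class II genes could have been split between similar copies. Without control 1, regenerating library 1 or regenerating library 2 no gene of the list passed, and without control 2, 1 did.

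Markers of non-parenchymal cells were listed in small numbers. Of 33 endothelial markers 7 were listed and tested, and 3 rose and none fell (median 0.99, summed level 28.0 to 34.7 RPKM in the controls and 68.6 to 97.7 in regenerating liver). Of all tested genes 21.2% rose. Emcn, endomucin, rose from 0.959, 0.794 and 0.843 to 4.04, 6.92, 3.12 and 4.24 RPKM (1.54 ± 0.19), and Eng, a co-receptor for TGF-beta and BMP ligands, from 16.7, 14.7 and 20.5 to 53.4, 36.5, 31.8 and 43.3 RPKM (1.19 ± 0.19). Gata4, which hepatocytes also express, was the third. Emcn had no control library at 1 RPKM and passed the filter only because the regenerating libraries were high. Cdh5, the junction protein VE-cadherin, was at 2.19, 3.03 and 3.93 and 9.79, 8.29, 6.5 and 4.22 RPKM (0.99 ± 0.25, adjusted p = 0.0936, limma), with regenerating library 4 close to control 3, and passed without library 4 (1.19, adjusted p = 0.0298). The adjusted p of Cdh5 reached 0.3649 over the fits without 1 library (limma). Without regenerating library 4, 6 of the 7 markers passed, without library 2, 1 did, and without control 1 or control 2 none did.

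Of 50 stellate cell and matrix markers 14 were listed and tested, and 6 rose and none fell (median 0.94, summed level 193 to 239 RPKM in the controls and 315 to 392 in regenerating liver). Col1a1, the main chain of type I collagen, was at 1.7, 0.471 and 2.78 and 7.72, 7.39, 5.68 and 11.5 RPKM (1.84 ± 0.32), and Vim, the intermediate filament vimentin, at 18.5, 14.3 and 36.6 and 67.2, 56.1, 51.8 and 70.9 RPKM (1.47 ± 0.28), with control 3 the highest control in both. Fbln5 (1.18 ± 0.19), Nid2 (0.86 ± 0.16), Col6a2 (0.92 ± 0.16) and Hand2 (0.96 ± 0.18) rose. Without control 1, control 2, or regenerating library 1, 2 or 4 the count was 1, 0, 0, 1 and 3. Of 34 macrophage markers only Lgals3 and Gpnmb were listed, and neither passed, with Lgals3 at 15.2, 17.4 and 52.9 and 78.1, 60.4, 59.6 and 50.3 RPKM. Without control 3, the highest control, Lgals3 passed as higher (1.85, adjusted p = 0.00205, limma), and Gpnmb passed without regenerating library 4 (0.95, adjusted p = 0.0138, limma). Over the fits without 1 library the adjusted p of Lgals3 reached 0.7386 and that of Gpnmb 0.2334 (limma). Of 32 T and NK cell markers Klrd1 alone was listed, at 0.455 to 0.884 RPKM in the controls and 0.138 to 0.262 in regenerating liver, under the filter. No marker of B cells, neutrophils or erythroid cells was listed. No listed marker was at 0 in any library, and the part of a changed cell mixture in the other results was not tested.

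Most genes that rose, 236 of 361, were on none of the 50 lists. The smallest adjusted p of the table belonged to Mest (GeneID 58827), an imprinted gene of the alpha/beta hydrolase family known from fetal growth and from expanding fat tissue, named here after its values were seen. It was at 1.64, 1.17 and 0.975 RPKM in the controls and 14.3, 14.4, 12 and 11.6 in the regenerating libraries (2.64 ± 0.14, adjusted p = 7.05e-05, limma). Control 3 was the lowest control and library 4 the lowest regenerating library, so Mest did not share the order of the mitotic genes. Further genes with calls kept without each library and named for that reason were Idh2, the mitochondrial isocitrate dehydrogenase, at 19.7, 24.7 and 23.8 and 71.9, 64.8, 67.3 and 67.2 RPKM (1.54 ± 0.12), Naprt, which makes NAD from nicotinic acid (1.24 ± 0.13), the granzyme B inhibitor Serpinb9 (1.59 ± 0.18), the macrophage growth factor Csf1 (1.65 ± 0.19) and Haus4, a subunit of the augmin complex of the spindle (2.43 ± 0.22). Lgals1, galectin 1, from the oncofetal list, rose from 7.99, 4.68 and 13.8 to 39.5, 33.2, 25.5 and 63.3 RPKM (2.11 ± 0.37).

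Genes with few reads were left out of the test. Of the 390 untested genes 334 had a higher and 56 a lower mean in regenerating liver. Since values of such genes moved in whole steps, reads could be recovered for 175 of 213 low genes (within 0.03 of a read). No control library had a read of 17 genes, and these had 4 to 34 reads over the 4 regenerating libraries together, such as 10, 9, 4 and 11 reads of the RNA-binding protein gene Raver2 and 7, 7, 6 and 4 of the nucleoside transporter gene Slc28a1, both named after their values were seen. These are counts of single libraries and were given no test.

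Set beside Morris hepatoma, regenerating liver held less of most listed genes. A direct comparison of 4 against 4 libraries took in 1695 genes in both rat tables that passed the filter. Of these, 67 were higher in regenerating liver (3.95%) and 1370 lower (80.8%). The fit left out the shared controls, but its genes had been listed for a difference from those controls. The controls therefore had a part in which genes entered. The median difference was -1.45, and with medians of the tested genes set equal 506 were higher and 433 lower. All 29 replication genes tested there, 30 of 37 mitosis genes and 30 of 31 cytoskeleton genes were lower in regenerating liver. The mitosis count lay near the 80.8% of all genes compared. With medians set equal 18, 4 and 22 were lower, and 2 mitosis genes were higher. A gene could pass the filter through the hepatoma libraries alone. Cdk1 was at 121 ± 32 RPKM (mean ± SD, n = 4) in hepatoma and 27.5 ± 12.7 in regenerating liver (regenerating minus hepatoma -2.19 ± 0.32, adjusted p = 0.00118, limma; -0.63 and 0.801 with medians set equal). Mcm7 differed more, at 108 ± 30.5 and 8.29 ± 2.37 RPKM (-3.54 ± 0.23, limma), and Hmga1, an oncofetal chromatin protein that rose in regenerating liver by 0.84 ± 0.14, was at 455 ± 126 RPKM in hepatoma against 3.58 ± 0.571 (-6.60 ± 0.20).

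Some cell cycle genes did not pass in this comparison. Ccnb2 was at 14.9 ± 4.6 RPKM in hepatoma and 16.4 ± 8.35 in regenerating liver (0.05 ± 0.33, adjusted p = 1, limma), and Tk1 at 43.4 ± 13.6 and 37.2 ± 10.6 RPKM (-0.21 ± 0.24, adjusted p = 1, limma). With medians set equal both were higher in regenerating liver, by 1.60 and 1.35.

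Of the cholesterol list 3 of 7 genes were higher and 2 lower in regenerating liver than in hepatoma (median -0.39). Abcg5 was at 0.136, 0.0221, 0.236 and 0.378 RPKM in the 4 hepatoma libraries, below all controls, against 10.5 ± 1.05 in regenerating liver (3.28 ± 0.14, adjusted p = 2.56e-09, limma), and Abcg8 differed by 1.64 ± 0.12. Naprt (3.34 ± 0.53), Adh4 (3.15 ± 0.51), Rxra (2.01 ± 0.32) and Usp2 (2.43 ± 0.24) were higher in regenerating liver too, while Adh1c did not pass (5.53 ± 1.72, adjusted p = 0.263, limma). The hepatocyte marker Tf was at 225, 69.6, 6594 and 4787 RPKM in hepatoma libraries 1 to 4, and libraries 3 and 4 were also the higher pair for Naprt, at 1.55, 2.65, 11.3 and 8.93 RPKM, and for Adh4, at 0.347, 0.001, 4.2 and 1.96 RPKM. The part of remaining liver tissue or of tumour cells in these values was not tested. The steroid 5-alpha reductase gene Srd5a1, named after its values were seen, was at 168, 154 and 70.2 RPKM in the controls, 318, 355, 332 and 324 in regenerating liver (1.43 ± 0.27) and 11 ± 4.01 in hepatoma (4.85 ± 0.21). Mest was higher in hepatoma than in regenerating liver, at 396 ± 103 RPKM (-4.78 ± 0.20).

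**Figure D5:**
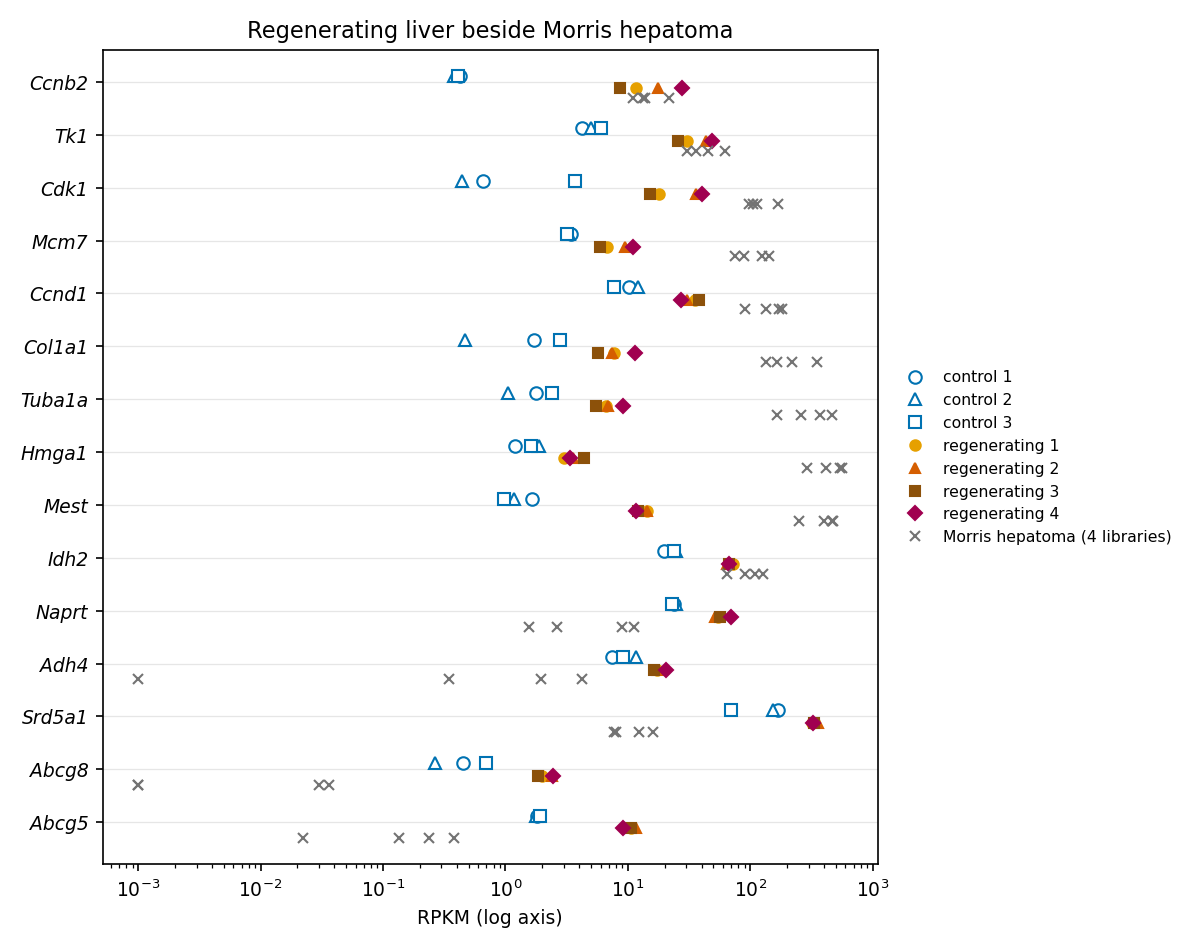
RPKM on a log axis for 15 genes in the 3 control (open blue), 4 regenerating (filled) and 4 Morris hepatoma libraries (grey crosses), where 0.001 stands for no reads. Ccnb2, Tk1 and Idh2 overlap between regenerating liver and hepatoma, Cdk1 to Mest are higher in every hepatoma library, and Naprt to Abcg5 are lower in every hepatoma library than in any regenerating one.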

How the data were processed

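The RNA libraries compared were 4 of regenerating rat liver, 3 of control rat liver and 4 of Morris hepatoma. The mouse table of the study was not analysed here. Aligner, genome build and counting method: not given in the sources used here. Values that the authors deposited were read as RPKM from their steps, since the headers name no unit, with 0.001 for no reads. Per the file headers each table has a log2 ratio of group means, which matched the recomputed ratio within 0.01 in all 2093 genes, and a p-value named Holm, which matched an unadjusted equal-variance comparison of the linear means within 1% in all 2093 genes. Of the genes 2091 were found in the RefSeq GRCr8 table, which gave the current symbols. The control columns were the same in both rat tables.

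Values were tested as log2(RPKM + 1), on which fold changes of low genes come out too small, with limma 3.58.1 in R 4.3.3 (trend and robust, two-sided), without a replicate term, for genes with at least 1 RPKM in at least 3 of 7 libraries. The adjustment counted 23154 protein-coding genes because the tables are preselected. The test was checked on simulated data. Log2 fold changes are given ± SE. With 3 and 4 libraries a permutation test was not used. Depth is relative, from the steps of low values, so no counting intervals are given. Lists are described by counts and medians, with no test of the list.

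The named genes were the 12 called genes with the largest rise and the 12 with the largest fall, up to 6 called and 3 other members of each of 50 lists, 39 regeneration genes where listed, and the 5 highest genes, a few of which are not reported here. The members, lists and rule were chosen with earlier results of these data known. Alternatives were other pseudocounts, filters, scalings and adjustments, a replicate block, and each library left out; the fit of libraries 1 to 3 without the block was added after seeing the data. Python 3.11.15 with pandas 2.3.3, numpy 2.4.6 and matplotlib 3.10.9 did the rest.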

Additional observations from a re-analysis of the deposited data

Results flagged for a closer look

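Among 119 genes looked at for a regenerating library apart from the other 3, 2 met the criterion, and chance alone marks about 1 in 20 groups of 4 samples. Apoa4 stood at 451.4 RPKM in regenerating library 4, against 111 to 139 RPKM in libraries 1 to 3. G6pc1 stood at 84.29 RPKM in regenerating library 4, against 138 to 146 RPKM in the others. In both genes library 4 stayed on the regenerating side of all controls.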

How the results depend on the processing

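With a pseudocount of 10 the genes higher and lower were 139 and 4, the mitosis genes higher 2, the replication genes 5 and the cytoskeleton genes 12. A filter at 5 RPKM gave 149 higher, 4 lower and 3 replication genes, and no filter gave 22 lower. Median scaling gave 19 higher, 59 lower and 7 mitosis, 0 replication and 2 cytoskeleton genes, quantile normalization 20, 46, 7, 0 and 3, and median scaling gave 939 differences from hepatoma, 506 higher and 433 lower, in place of 1437. Adjustment over the 1703 tested genes alone gave 1561 higher, 65 lower and 31 cytoskeleton genes. The fit of libraries 1 to 3, chosen after seeing the data, gave 230 genes higher. Leaving out single libraries gave 20 to 338 genes higher, 0 to 14 lower, 2 to 33 mitosis, 0 to 20 replication and 2 to 16 cytoskeleton genes, and 1369 to 1421 differences from hepatoma. Fewer samples lower the power of these fits, and what else moved the counts was not tested. Of 116 tested genes named in the text, 1 changed direction, Tf, at -0.16 under median scaling.

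The replicate block on libraries 1 to 3 gave 25 genes higher and 2 lower, 4 mitosis, 0 replication and 2 cytoskeleton genes. The labels name no pairing by replicate number. Same-numbered libraries had correlations of 0.097, -0.27 and -0.29 between their deviations from the group means, and differently numbered ones -0.23 to 0.31. With 3 libraries in each group these values cannot decide whether libraries were paired.

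Depth is known only relative to another library, genes without a listed line cannot be compared, and changes of genes under about 1 RPKM are understated by the pseudocount.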
